A study of Homo sapiens with 12 samples.

Results

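DNA replication and S-phase genes are taken here as 47 genes chosen by symbol, from origin licensing to chromatin assembly and repair behind the fork. The choice was made with earlier results of these data known, so counts of members called describe this list and are no independent test of it. All 47 were among the 30017 symbols of the count table, and all 47 were among the 16010 that had enough counts to be tested. RNA with polyA tails was sequenced from THP-1, a human cell line from a monocytic form of acute myeloid leukaemia, in 12 libraries that form 4 groups of 3. The groups are IRAK4 knockout cells given 50 nM CC-885 for 12 h, IRAK4 knockout cells given DMSO, wild-type cells given CC-885, and wild-type cells given DMSO. Both genotypes had received Cas9 by electroporation, the knockout cells with a guide RNA against IRAK4 and the wild-type cells without one, and both were expanded from single cells. CC-885 is a small molecule that makes the ubiquitin ligase receptor cereblon take up the translation termination factor GSPT1 for degradation, and IRAK4 is a kinase downstream of Toll-like receptors. The number of clones behind each genotype is not given, so the knockout and clonal differences cannot be told apart. Nothing in the labels says that replicates are separate cultures, and p-values then measure only the spread between these libraries, which may be technical.

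Before a cell copies its DNA, the origin recognition complex with CDC6 and CDT1 loads the ring-shaped MCM2 to MCM7 helicase onto origins in G1. At the start of S phase, CDC45 and the GINS complex join that ring, and polymerases, the sliding clamp PCNA and its loaders then build both new strands. Most of these genes are transcribed as cells pass from G1 into S phase, when E2F factors are released from the retinoblastoma family, and proliferating leukaemia cells carry high levels of them.

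Library totals ranged from 46903984 to 56675539 counts. IRAK4 itself averaged 30.7 ± 1.05 CPM in CC-885-treated and 8.26 ± 0.847 CPM in DMSO-treated knockout libraries, against 72.8 ± 9.53 CPM in CC-885-treated and 52.2 ± 1.57 CPM in DMSO-treated wild-type libraries (SD, n = 3 each), and was lower in knockout under CC-885 (adjusted p = 1.14e-08) and under DMSO (adjusted p = 1.68e-11). The transcript of MYC, the factor named in the study's title, averaged 49.3 ± 2.30 CPM under CC-885 against 314 ± 8.47 CPM under DMSO in knockout, and 81.6 ± 7.34 CPM under CC-885 against 273 ± 5.25 CPM under DMSO in wild type (SD, n = 3 each). All 10 markers of a monocytic line were detected, and their sums were 1496 to 1518 CPM in CC-885-treated and 3458 to 4425 CPM in DMSO-treated knockout libraries, against 1804 to 1895 CPM in CC-885-treated and 2882 to 2963 CPM in DMSO-treated wild-type libraries. CD3E, CD3G and MS4A1 were at 0 throughout, summed T and NK cell markers reached at most 20.9 CPM, and summed B cell markers at most 3.39 CPM. Of 7 epithelial, stromal and endothelial markers, which include the keratins KRT8 and KRT18, COL1A2 was at 0 and 6 were detected, summing to 92.5 to 99.0 CPM in CC-885-treated and 413 to 460.1 CPM in DMSO-treated knockout libraries, against 101 to 115 CPM in CC-885-treated and 268 to 303 CPM in DMSO-treated wild-type libraries. The sums of monocytic, of T and NK cell, of B cell and of epithelial, stromal and endothelial markers moved with the treatment, and their part in the results was not tested. Replicate 3 of the CC-885-treated wild type stood apart from its 2 partners, with a ratio of chi-square to degrees of freedom of 81.2 and 66.4 against them over all genes, where those 2 gave 5.31 with each other. Its values for RPA3 and PRIM1 were far above those of its partners, and the wild-type responses of both genes are given with and without it. Replicate 3 of the DMSO-treated knockout was also above its partners for these genes. It had 43.9 against 33.5 and 32.6 CPM for RPA3, and 59.0 against 43.6 and 46.8 CPM for PRIM1.

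CC-885 lowered the transcripts of nearly all 47 members, and lowered most of them further in knockout cells than in wild-type cells. Summed over the 47 genes, levels averaged 1730 ± 25.3 CPM under CC-885 against 6484 ± 61.2 CPM under DMSO in knockout libraries (SD, n = 3 each). In wild-type libraries the sums averaged 2765 ± 38 CPM under CC-885 against 7007 ± 156 CPM under DMSO (SD, n = 3 each). The sum under CC-885 was thus 26.7% of the DMSO sum in knockout and 39.5% in wild type. In bulk RNA, fewer cells in S phase and less of these transcripts per cell cannot be told apart. CPM values are counts scaled by library size after TMM scaling, a correction for composition that centres changes on most genes, so every rise or fall is relative to the other transcripts.

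In knockout cells, 46 of 47 members fell under CC-885 (edgeR's quasi-likelihood test, Benjamini-Hochberg adjusted p under 0.05 over all 16010 genes) and 0 rose, where 40% of all genes tested fell and 38.9% rose. Falls of at least 2-fold were called for 41 members and falls of at least 4-fold for 25, against 20.2% and 5.87% of all genes. In wild-type cells, 46 of 47 fell and 0 rose, where 36.6% of all genes fell and 35.7% rose. There 36 members were called at least 2-fold lower and 10 at least 4-fold lower, against 12.7% and 1.56% of all genes. The median log2 fold change over the members was -2.10 in knockout and -1.42 in wild type, beside -0.03 over all genes in each. Put as what was left, the median member kept 23.4% of its DMSO level in knockout (2.61% to 93.3%) and 37.5% in wild type (10.7% to 93.2%). The libraries of the 2 treatments did not overlap for 46 members in knockout and for 45 in wild type, where 41.5% and 37.7% of all genes were lower without overlap. Library names open with 51 or 52, whose meaning is not given, and all 3 CC-885-treated knockout libraries carry 51. Within the libraries that carry 51, the medians were -2.01 in knockout and -1.43 in wild type. Only replicate 1 of the DMSO-treated wild type carries 51, so that wild-type value rests on this DMSO library alone. Replicate 3 of the CC-885-treated wild type, the library that stands apart, carries 52, as does replicate 3 of the DMSO-treated knockout.

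**Figure D1:**
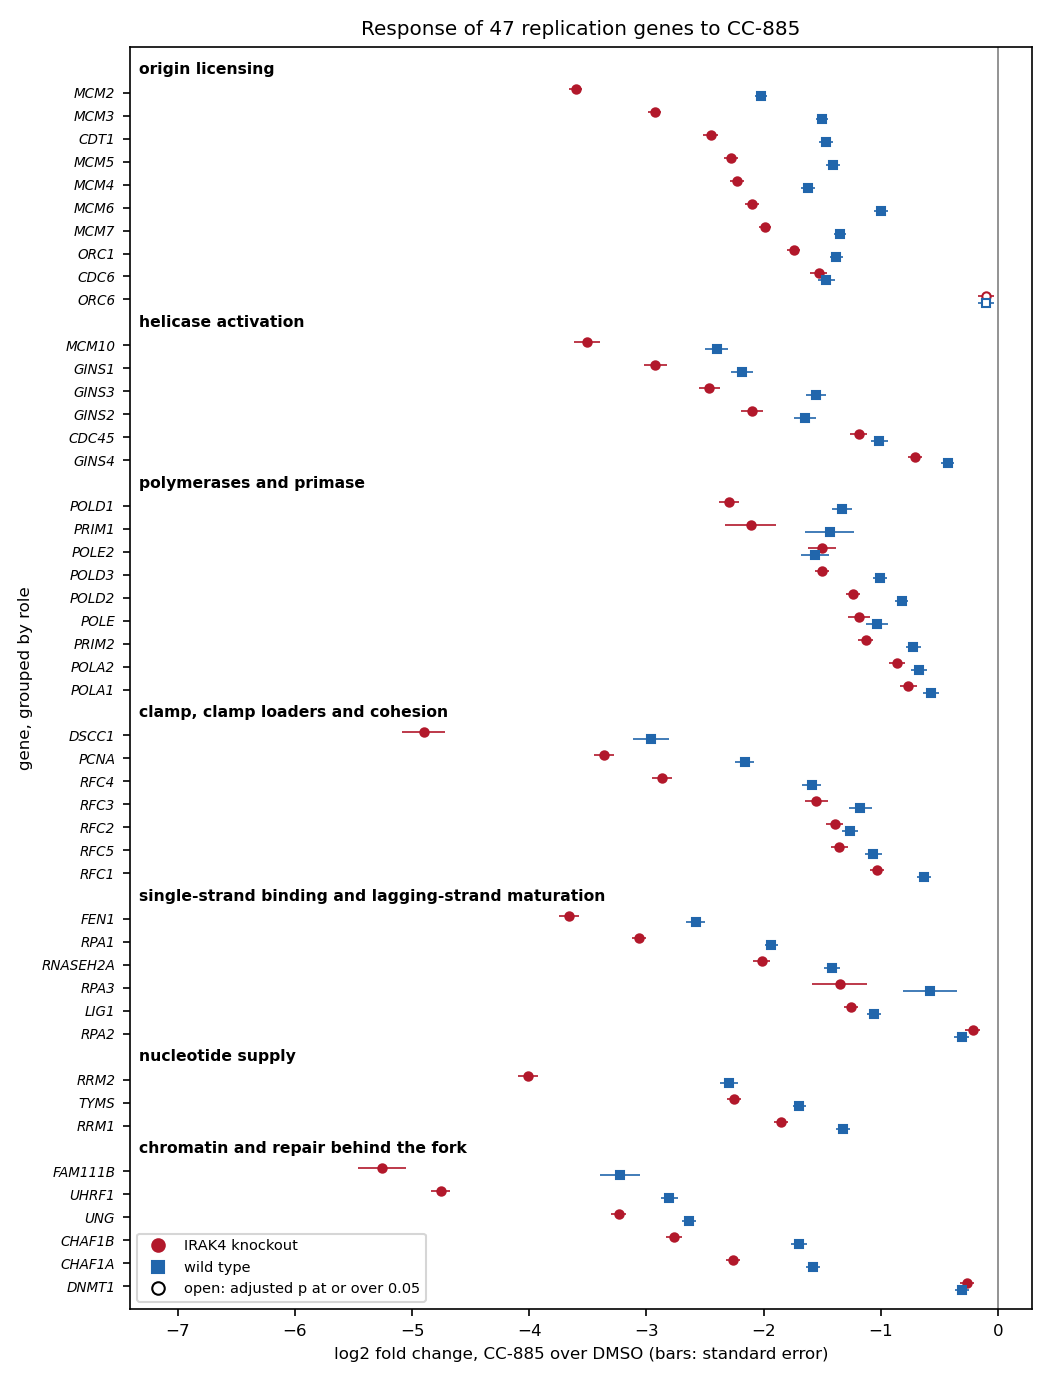
Log2 fold change of each of the 47 genes under CC-885 over DMSO (x axis, bars are standard errors) in IRAK4 knockout (red circles) and wild type (blue squares), grouped by role. Filled symbols passed an adjusted p of 0.05, and ORC6 alone is open in both genotypes.

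Origin licensing held 10 members, of which 9 fell in each genotype, with medians of -2.16 in knockout and -1.44 in wild type. MCM2, a subunit of the replicative helicase, stood at 34.9, 34.0 and 34.0 CPM in CC-885-treated knockout libraries, against 418, 406 and 427 CPM in DMSO-treated knockout libraries. In wild type it stood at 96.6, 98.2 and 96.1 CPM under CC-885, against 405, 385 and 391 CPM under DMSO. The treatments lay far apart in both genotypes, and the CC-885-treated knockout libraries were the lowest of all 12. The log2 fold change was -3.60 ± 0.05 (SE, adjusted p = 5.61e-17) in knockout and -2.02 ± 0.05 (adjusted p = 1.32e-14) in wild type. MCM3, the member of this role with the highest level, stood at 90.6, 92.7 and 89.5 CPM in CC-885-treated knockout libraries, against 693, 714 and 673 CPM in DMSO-treated knockout libraries. In wild type MCM3 stood at 299, 297 and 302 CPM under CC-885, against 818, 839 and 886 CPM under DMSO. No groups of MCM3 overlapped, and knockout was below wild type under either treatment. Its log2 fold change was -2.93 ± 0.06 (adjusted p = 5.58e-16) in knockout and -1.50 ± 0.05 (adjusted p = 6.67e-13) in wild type. The other helicase subunits MCM4, MCM5, MCM6 and MCM7 had log2 fold changes of -2.23, -2.28, -2.10 and -1.99 in knockout and of -1.62, -1.41, -0.998 and -1.35 in wild type, all called. CDT1, which brings the helicase to origins, had -2.45 in knockout and -1.46 in wild type, while CDC6, the loading ATPase, had -1.53 in knockout and -1.47 in wild type. ORC1, the largest subunit of the origin recognition complex, had -1.74 in knockout and -1.38 in wild type.

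ORC6, another subunit of the origin recognition complex, was the exception. It stood at 30.0, 29.6 and 31.8 CPM in CC-885-treated knockout libraries, against 32.8, 34.4 and 30.9 CPM in DMSO-treated knockout libraries. In wild type ORC6 stood at 32.0, 35.5 and 37.1 CPM under CC-885, against 37.7, 36.8 and 37.7 CPM under DMSO. The treatments overlapped in both genotypes, and neither log2 fold change passed the test (-0.10 ± 0.07, adjusted p = 0.205 in knockout and -0.10 ± 0.07, adjusted p = 0.209 in wild type). With upper-quartile scaling or library size alone, which shift the bulk of genes, ORC6 was called lower in both genotypes at log2 fold changes of -0.25 and -0.20 in knockout and of -0.17 and -0.16 in wild type.

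The unequal falls changed the order of transcript levels among MCM2 to MCM7, whose proteins form a ring built from all 6 subunits. Per kilobase of merged exons, the lowest subunit in CC-885-treated knockout libraries was MCM2 at 9.47 CPM per kb and the highest MCM4 at 29.4. In DMSO-treated knockout libraries MCM6 was lowest at 77.0 CPM per kb and MCM3 highest at 216. In CC-885-treated wild-type libraries MCM2 was lowest at 26.8 CPM per kb and MCM3 highest at 93.3, and in DMSO-treated wild-type libraries MCM6 was lowest at 78.7 and MCM3 highest at 264. MCM2 was thus the scarcest transcript of the ring under CC-885 in both genotypes and MCM6 under DMSO, on a scale that rests on the annotated exon lengths and carries no test. The ratio of highest to lowest moved little, at 3.11 under CC-885 and 2.8 under DMSO in knockout, and 3.49 and 3.35 in wild type. Of the exon bases of MCM2, 30.7% overlap another annotated gene, and protein was not measured.

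**Figure D2:**
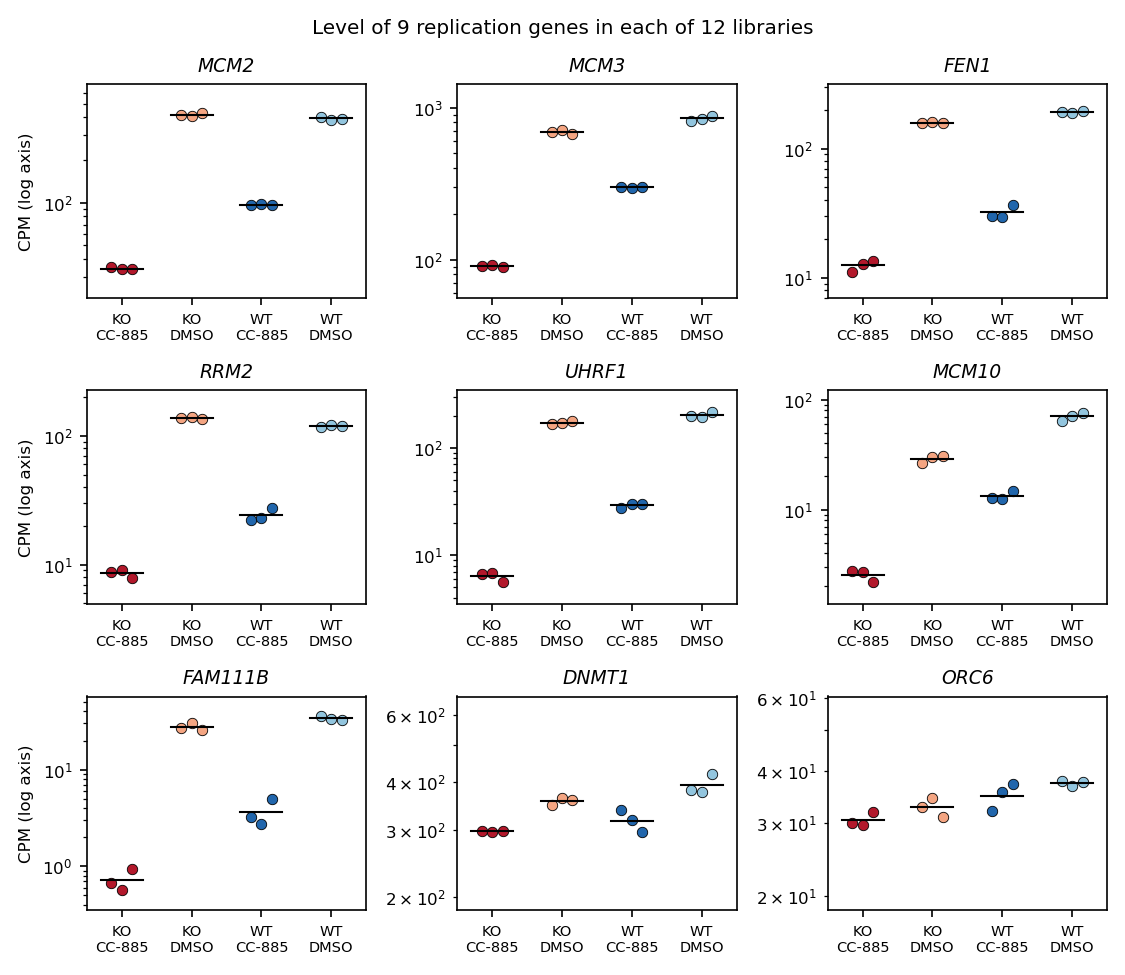
Level in CPM (log axis) of 9 members in each of the 12 libraries, with groups along the x axis and a line at each mean of 3. CC-885-treated knockout libraries are lowest for MCM2, MCM3, FEN1, RRM2, UHRF1, MCM10 and FAM111B, while DNMT1 and ORC6 stay near their DMSO level.

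Helicase activation held 6 members, and all 6 fell in both genotypes. MCM10, which activates the loaded helicase, stood at 2.76, 2.67 and 2.21 CPM in CC-885-treated knockout libraries, against 26.5, 29.8 and 30.9 CPM in DMSO-treated knockout libraries. In wild type MCM10 stood at 12.7, 12.5 and 14.8 CPM under CC-885, against 64.3, 71.3 and 75.8 CPM under DMSO. All 4 groups were separate, and within each treatment the knockout libraries were below the wild-type ones. Its log2 fold change was -3.51 ± 0.11 (adjusted p = 9.77e-14) in knockout and -2.40 ± 0.10 (adjusted p = 3.44e-12) in wild type. GINS4, the GINS subunit with the highest level, fell least, standing at 36.8, 39.1 and 36.7 CPM in CC-885-treated knockout libraries, against 59.5, 61.9 and 62.5 CPM in DMSO-treated knockout libraries. In wild type GINS4 stood at 49.0, 49.0 and 49.2 CPM under CC-885, against 63.2, 66.6 and 68.4 CPM under DMSO. The treatments did not overlap in either genotype, and the log2 fold change was -0.71 ± 0.06 (adjusted p = 9.74e-09) in knockout and -0.43 ± 0.06 (adjusted p = 4.89e-06) in wild type. Its 3 partners in the same 4-subunit complex had the lower log2 fold changes of -2.92, -2.10 and -2.46 for GINS1, GINS2 and GINS3 in knockout, and of -2.19, -1.65 and -1.55 in wild type. CDC45 had -1.19 in knockout and -1.01 in wild type.

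Polymerases and primase fell least as a role, with medians of -1.24 in knockout and -1.01 in wild type, and all 9 passed the test in both genotypes. POLD1, the catalytic subunit of polymerase delta, stood at 30.4, 33.3 and 34.3 CPM in CC-885-treated knockout libraries, against 166, 149 and 166 CPM in DMSO-treated knockout libraries. In wild type POLD1 stood at 54.2, 54.2 and 65.9 CPM under CC-885, against 144, 139 and 155 CPM under DMSO. Its log2 fold change was -2.30 ± 0.08 (adjusted p = 4.85e-13) in knockout and -1.33 ± 0.08 (adjusted p = 4.25e-10) in wild type, with no overlap of treatments. POLD2, an accessory subunit of polymerase delta and the most abundant transcript of this role, stood at 91.0, 96.8 and 98.6 CPM in CC-885-treated knockout libraries, against 238, 213 and 224 CPM in DMSO-treated knockout libraries. In wild type POLD2 stood at 117, 113 and 108 CPM under CC-885, against 194, 203 and 199.9 CPM under DMSO. Its log2 fold changes were -1.24 in knockout and -0.82 in wild type, again without overlap. POLE2, an accessory subunit of polymerase epsilon, stood at 4.92, 5.03 and 5.25 CPM in CC-885-treated knockout libraries, against 14.2, 14.0 and 14.8 CPM in DMSO-treated knockout libraries. In wild type POLE2 stood at 6.64, 6.71 and 8.92 CPM under CC-885, against 19.0, 22.0 and 24.6 CPM under DMSO. Its groups were separate and its falls nearly equal, at -1.50 ± 0.12 (adjusted p = 8.64e-09) in knockout and -1.56 ± 0.12 (adjusted p = 5.61e-09) in wild type. Of polymerase alpha and primase, POLA1 and POLA2 had log2 fold changes of -0.76 and -0.86 in knockout and of -0.57 and -0.67 in wild type. The primase subunits PRIM1 and PRIM2 had -2.11 and -1.13 in knockout and -1.44 and -0.72 in wild type. POLD3, a further polymerase delta subunit, had -1.50 in knockout and -1.01 in wild type, and POLE, the catalytic subunit of polymerase epsilon, had -1.19 in knockout and -1.03 in wild type. PRIM1 had 34.3 CPM in the wild-type library that stands apart against 18.5 and 19.4 CPM in its partners, and without that library its wild-type log2 fold change was -1.78 (adjusted p = 1.81e-11).

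The clamp and its loaders fell in all 7 members in both genotypes. DSCC1, a subunit of the alternative clamp loader that acts in sister chromatid cohesion, stood at 0.879, 1.25 and 0.945 CPM in CC-885-treated knockout libraries, against 27.9, 30.9 and 32.9 CPM in DMSO-treated knockout libraries. In wild type DSCC1 stood at 3.57, 3.58 and 5.58 CPM under CC-885, against 29.6, 34.1 and 35.4 CPM under DMSO. The CC-885-treated knockout libraries lay below every wild-type library, and the log2 fold change was -4.90 ± 0.18 (adjusted p = 1.97e-12) in knockout and -2.96 ± 0.15 (adjusted p = 1.65e-10) in wild type. RFC1, the large subunit of the canonical clamp loader, stood at 54.3, 55.4 and 53.4 CPM in CC-885-treated knockout libraries, against 101, 118 and 114 CPM in DMSO-treated knockout libraries. In wild type RFC1 stood at 63.6, 61.9 and 63.1 CPM under CC-885, against 97.2, 96.2 and 98.7 CPM under DMSO. Its log2 fold changes of -1.03 in knockout and -0.63 in wild type, without overlap, were the smallest falls of this role. PCNA, the clamp itself, had -3.36 in knockout and -2.16 in wild type. Of the small subunits of the loader, RFC4 had -2.87 in knockout and -1.59 in wild type, and RFC2, RFC3 and RFC5 had -1.39, -1.55 and -1.35 in knockout and -1.26, -1.17 and -1.06 in wild type.

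Single-strand binding and lagging-strand maturation held both deep and shallow falls, and all 6 members passed the test in each genotype. FEN1, the nuclease that trims flaps between Okazaki fragments, stood at 11.2, 12.9 and 13.4 CPM in CC-885-treated knockout libraries, against 157, 161 and 157 CPM in DMSO-treated knockout libraries. In wild type FEN1 stood at 29.9, 29.7 and 36.6 CPM under CC-885, against 191, 189 and 196 CPM under DMSO. Its log2 fold change was -3.66 ± 0.09 (adjusted p = 5.23e-15) in knockout and -2.58 ± 0.08 (adjusted p = 2.18e-13) in wild type, with wide gaps between treatments. LIG1, the ligase that seals those fragments, stood at 37.7, 39.2 and 39.1 CPM in CC-885-treated knockout libraries, against 92.9, 87.2 and 96.1 CPM in DMSO-treated knockout libraries. In wild type LIG1 stood at 40.5, 43.8 and 42.8 CPM under CC-885, against 86.6, 85.9 and 91.6 CPM under DMSO. Its log2 fold changes were -1.25 in knockout and -1.06 in wild type, without overlap of treatments, and its CC-885-treated libraries were close together in both genotypes. RNASEH2A, the catalytic subunit of RNase H2, stood at 17.0, 18.1 and 20.5 CPM in CC-885-treated knockout libraries, against 78.0, 71.1 and 75.7 CPM in DMSO-treated knockout libraries. In wild type RNASEH2A stood at 23.8, 23.7 and 23.8 CPM under CC-885, against 63.3, 62.8 and 63.9 CPM under DMSO. Its log2 fold changes were -2.01 in knockout and -1.42 in wild type, without overlap.

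The 3 subunits of the single-strand binding complex RPA did not move together. RPA1, the large subunit, had log2 fold changes of -3.06 in knockout and -1.93 in wild type. RPA2 stood at 45.2, 47.7 and 46.4 CPM in CC-885-treated knockout libraries, against 56.5, 56.1 and 49.2 CPM in DMSO-treated knockout libraries. In wild type RPA2 stood at 49.2, 47.1 and 49.7 CPM under CC-885, against 59.7, 62.1 and 59.0 CPM under DMSO. The treatments were close but separate in both genotypes, with log2 fold changes of -0.21 ± 0.06 (adjusted p = 0.00614) in knockout and -0.31 ± 0.06 (adjusted p = 0.000423) in wild type. RPA3, the small subunit, stood at 12.7, 14.9 and 15.6 CPM in CC-885-treated knockout libraries, against 33.5, 32.6 and 43.9 CPM in DMSO-treated knockout libraries. In wild type RPA3 stood at 15.3, 15.8 and 29.9 CPM under CC-885, against 31.9, 28.7 and 30.4 CPM under DMSO. The wild-type treatments overlap through CC-885 replicate 3, which reached the DMSO level. RPA3 changed by -1.35 ± 0.24 (adjusted p = 0.000327) in knockout and by -0.58 ± 0.23 (adjusted p = 0.0451) in wild type. Without that replicate the wild-type value was -0.965 (adjusted p = 4.94e-07), while DESeq2, the fit with no filter on low counts, the fit of those groups alone, 1 replicate block and 9 other single-library omissions left it at -0.41 to -0.62 with an adjusted p between 0.0531 and 0.147.

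Nucleotide supply fell in all 3 members. RRM2, the small subunit of ribonucleotide reductase, stood at 8.68, 9.04 and 7.90 CPM in CC-885-treated knockout libraries, against 137, 141 and 135 CPM in DMSO-treated knockout libraries. In wild type RRM2 stood at 22.4, 23.1 and 27.5 CPM under CC-885, against 117, 122 and 119 CPM under DMSO. Its log2 fold change was -4.01 ± 0.08 (adjusted p = 1.16e-15) in knockout and -2.30 ± 0.08 (adjusted p = 3.56e-13) in wild type, and no groups overlapped. TYMS, thymidylate synthase, stood at 63.7, 68.1 and 65.5 CPM in CC-885-treated knockout libraries, against 309, 322 and 308 CPM in DMSO-treated knockout libraries. In wild type TYMS stood at 81.0, 86.2 and 82.3 CPM under CC-885, against 281, 266 and 259.6 CPM under DMSO. No treatments overlapped, and its log2 fold changes were -2.25 in knockout and -1.69 in wild type. RRM1, the large subunit of ribonucleotide reductase, had -1.85 in knockout and -1.32 in wild type. Of the merged exon bases of TYMS, 58.2% overlap ENOSF1 on the opposite strand, and the strand setting of the counting is not given in the sources used here, so reads of those genes may be mixed. Exons of MCM2, GINS4, POLA2, RRM2 and PRIM1 also overlap another annotated gene by 30.7%, 21.2%, 53.7%, 27.9% and 26.0% of their bases.

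Chromatin and repair behind the fork had the deepest median, -3.0 in knockout and -2.17 in wild type, and also held DNMT1, which moved little. UHRF1, which recognises hemimethylated DNA behind the fork, stood at 6.64, 6.81 and 5.61 CPM in CC-885-treated knockout libraries, against 165, 172 and 179 CPM in DMSO-treated knockout libraries. In wild type UHRF1 stood at 27.6, 29.8 and 29.7 CPM under CC-885, against 198, 196 and 214 CPM under DMSO. It kept 3.69% of its DMSO level in knockout and 14.3% in wild type, with log2 fold changes of -4.76 ± 0.08 (adjusted p = 2.21e-16) in knockout and -2.80 ± 0.07 (adjusted p = 1.85e-14) in wild type. DNMT1, the maintenance methyltransferase that UHRF1 recruits, stood at 298, 296 and 298 CPM in CC-885-treated knockout libraries, against 348, 363 and 359.6 CPM in DMSO-treated knockout libraries. In wild type DNMT1 stood at 338, 318 and 296 CPM under CC-885, against 381, 378 and 419.7 CPM under DMSO. DNMT1 kept 83.3% of its DMSO level in knockout and 80.7% in wild type, with log2 fold changes of -0.26 ± 0.06 (adjusted p = 0.000799) in knockout and -0.31 ± 0.06 (adjusted p = 0.000234) in wild type. UNG, the glycosylase that removes uracil from DNA, stood at 7.19, 7.31 and 7.48 CPM in CC-885-treated knockout libraries, against 66.8, 69.9 and 70.4 CPM in DMSO-treated knockout libraries. In wild type UNG stood at 14.7, 14.95 and 14.2 CPM under CC-885, against 87.6, 94.2 and 90.8 CPM under DMSO. Its log2 fold changes were -3.24 in knockout and -2.63 in wild type, with no overlap. FAM111B, a protease of the FAM111 family, had the deepest fall of the 47 in both genotypes, at 0.664, 0.564 and 0.945 CPM in CC-885-treated knockout libraries, against 26.7, 30.5 and 25.9 CPM in DMSO-treated knockout libraries. In wild type FAM111B stood at 3.24, 2.76 and 4.92 CPM under CC-885, against 35.7, 33.8 and 32.7 CPM under DMSO. It kept 2.61% in knockout and 10.7% in wild type, with log2 fold changes of -5.26 ± 0.21 (adjusted p = 8.23e-12) in knockout and -3.23 ± 0.17 (adjusted p = 3.57e-10) in wild type. The histone chaperone subunits CHAF1A and CHAF1B had -2.26 and -2.77 in knockout and -1.58 and -1.70 in wild type.

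Promoter letters were read for the members from the RefSeq promoter table of GRCh38.p14, whose windows run from 250 bases before a transcription start to 50 bases after it. It held 50 windows for 39 members and none for MCM4, MCM5, GINS4, POLD3, DSCC1, RPA2, RPA3 and FAM111B. The letters TTTCCCGC, TTTGGCGC, TTTCGCGC or TTTGCCGC, forms bound by E2F factors, stood on either strand in 20 of 39 members (51.3%), where 3.99% of the 27305 genes of the table had them. With TTTCCCGC or TTTGGCGC alone, these were 16 members (41.0%) and 2.75% of genes. Of 27 occurrences in the members, counting overlapping matches on both strands, 20 began within 100 bases before to 50 bases after the start. The CCAAT letters of NF-Y stood on either strand in 24 members (61.5%) and in 39.7% of genes. Windows of 4 genes are shown because they pair letters and response in different ways, with the E2F letters in capitals, each 5′ to 3′ on the strand of its gene, so a match on the opposite strand appears as its reverse complement. UHRF1 (plus strand, chr19:4909251-4909550) is shown by 1 of its 3 windows, has the letters and fell deeply. DNMT1 (minus strand, chr19:10194904-10195203) has them across its start and fell little. FEN1 (plus strand, chr11:61792661-61792960) has none in its window and fell deeply. ORC6 (plus strand, chr16:46689409-46689708) has none and did not pass the test.
UHRF1: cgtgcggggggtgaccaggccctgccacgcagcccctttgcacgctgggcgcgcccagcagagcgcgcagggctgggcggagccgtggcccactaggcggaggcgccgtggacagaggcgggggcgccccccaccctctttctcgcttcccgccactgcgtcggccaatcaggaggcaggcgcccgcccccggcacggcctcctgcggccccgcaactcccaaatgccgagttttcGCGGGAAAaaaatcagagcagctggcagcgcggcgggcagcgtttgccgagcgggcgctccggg
DNMT1: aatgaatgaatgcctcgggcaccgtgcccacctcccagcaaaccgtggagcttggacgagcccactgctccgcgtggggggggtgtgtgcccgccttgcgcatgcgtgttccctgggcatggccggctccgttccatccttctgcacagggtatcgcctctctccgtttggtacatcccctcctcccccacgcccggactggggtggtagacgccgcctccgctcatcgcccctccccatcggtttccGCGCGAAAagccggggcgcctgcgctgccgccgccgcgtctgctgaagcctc
FEN1: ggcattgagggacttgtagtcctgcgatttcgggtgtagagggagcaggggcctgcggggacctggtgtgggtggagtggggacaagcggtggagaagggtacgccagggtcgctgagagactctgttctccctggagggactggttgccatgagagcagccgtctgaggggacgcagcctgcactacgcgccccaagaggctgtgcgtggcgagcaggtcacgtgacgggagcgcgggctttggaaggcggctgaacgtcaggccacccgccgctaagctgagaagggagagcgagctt
ORC6: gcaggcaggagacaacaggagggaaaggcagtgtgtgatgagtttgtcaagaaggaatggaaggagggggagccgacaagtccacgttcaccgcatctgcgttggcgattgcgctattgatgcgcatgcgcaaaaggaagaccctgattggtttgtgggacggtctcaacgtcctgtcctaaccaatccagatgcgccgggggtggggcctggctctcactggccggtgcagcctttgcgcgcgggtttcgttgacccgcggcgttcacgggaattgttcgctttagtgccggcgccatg

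The medians of members with and without the letters were close. The 20 members with E2F letters had a median log2 fold change of -2.10 in knockout and -1.48 in wild type. The 19 members with a promoter window but without the letters had medians of -2.01 in knockout and -1.38 in wild type, and the range was -4.76 to -0.26 with the letters and -4.01 to -0.10 without them in knockout. A match is a description of letters, and no test was made. Only exact matches to the 4 forms within the windows were counted. A member without these letters may therefore have other sites bound by E2F factors, and the 2 sets do not compare promoters with and without such sites.

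Knockout cells fell further than wild-type cells for most members, which the interaction tests directly as the log2 fold change in knockout minus that in wild type. It was negative and called for 34 of 47 members, where 16.8% of all genes tested were, and positive and called for 0, where 17.9% were. Counting values that did not pass, 43 of 47 members had the more negative response in knockout, and the median interaction was -0.60, beside -0.01 over all genes. FAM111B, UHRF1 and DSCC1 had the most negative interactions, -2.03 ± 0.27 (adjusted p = 7.98e-05), -1.96 ± 0.10 (adjusted p = 1.07e-08) and -1.94 ± 0.24 (adjusted p = 3.17e-05). RRM2 followed with -1.71 ± 0.11 (adjusted p = 5.76e-08), MCM2 with -1.58 ± 0.07 (adjusted p = 4.44e-09) and MCM3 with -1.43 ± 0.07 (adjusted p = 1.07e-08). The most positive values were those of RPA2 (0.09 ± 0.09, adjusted p = 0.455), POLE2 (0.06 ± 0.17, adjusted p = 0.817) and DNMT1 (0.04 ± 0.08, adjusted p = 0.721), none of which passed, and DNMT1 and POLE2 changed sign under other settings. The 13 members without a call ranged from -0.77, for RPA3, to 0.09. Without the wild-type library that stands apart, the interaction of RPA3 was -0.386 (adjusted p = 0.0494), against -0.773 (adjusted p = 0.0975) with it, and that of PRIM1 was -0.332 (adjusted p = 0.0614), against -0.676 (adjusted p = 0.104) with it. Without replicate 1 of that group instead, both passed, at -0.941 (adjusted p = 0.0446) for RPA3 and -0.833 (adjusted p = 0.0434) for PRIM1. Omitting the library that stands apart ended the calls of RFC3 (-0.266, adjusted p = 0.0656) and RFC5 (-0.217, adjusted p = 0.0572). This was not particular to that library, since RFC3 and RFC5 lost their calls in 8 and 9 of the fits with 1 library left out. By role, the interaction was called for 8 of 10 licensing members, 5 of 6 helicase activators, 4 of 9 polymerase and primase subunits, 6 of 7 clamp and loader members, 3 of 6 in lagging-strand maturation, 3 of 3 in nucleotide supply and 5 of 6 in chromatin and repair.

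The order of the members was much the same in both genotypes. Across the 47, the log2 fold changes of knockout and wild type had a Pearson r of 0.955 and a Spearman rho of 0.933, and the fitted line rose by 1.59 in knockout per unit in wild type. These are a description over genes, which are not independent replicates, and the genotypes share no library but share the scaling. Of the 10 deepest falls in each genotype 9 were shared, namely MCM2, MCM10, PCNA, DSCC1, FEN1, RRM2, UHRF1, UNG and FAM111B, with RPA1 added in knockout and GINS1 in wild type.

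**Figure D3:**
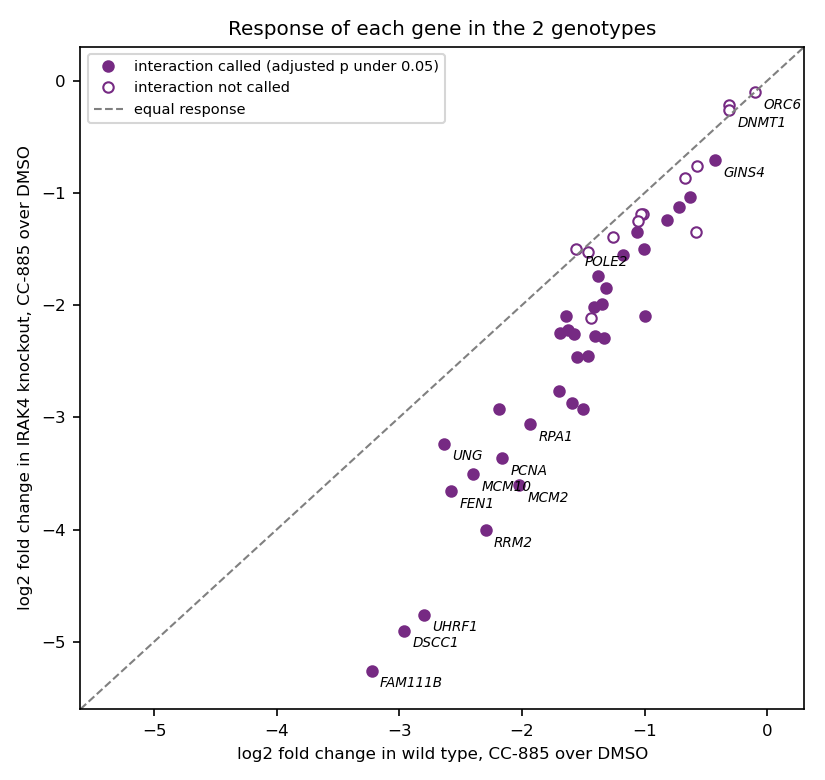
Log2 fold change under CC-885 over DMSO in IRAK4 knockout (y axis) against wild type (x axis) for the 47 genes, with a dashed line of equal response. Members with a called interaction (filled) lie below the line, while POLE2, DNMT1 and ORC6 lie on or near it.

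Under CC-885 the knockout libraries were lower for nearly all members. Against wild type, 43 of 47 were lower and 0 higher, where 30.8% of all genes tested were lower and 27.8% higher, and the median log2 fold change was -0.725, beside -0.0155 over all genes. At least 2-fold lower were 16 members, against 9.63% of all genes. At least 4-fold lower were, against 2.42% of all genes, MCM10 (-2.39 ± 0.11, adjusted p = 1.06e-10), FAM111B (-2.33 ± 0.23, adjusted p = 7.65e-07), UHRF1 (-2.19 ± 0.08, adjusted p = 7.21e-12) and DSCC1 (-2.05 ± 0.19, adjusted p = 4.24e-07). The 4 members without a call were RPA2 at -0.07, DNMT1 at -0.09, LIG1 at -0.13 and RPA3 at -0.50. Their per-library levels, given above, overlapped between genotypes for RPA2, RPA3 and DNMT1. Without the library that stands apart, the value of RPA3 was -0.113 (adjusted p = 0.419), and it passed without either partner of that library, at -0.668 (adjusted p = 0.0353) and -0.651 (adjusted p = 0.0417). DNMT1 passed without the library that stands apart (-0.14, adjusted p = 0.0412) and within the libraries that carry 51 (-0.145, adjusted p = 0.021), and ranged from -0.14 to -0.0449 with 1 library left out. PRIM1 kept its call without the same library, at -0.721 (adjusted p = 1.23e-05). POLA1 at -0.18 and ORC6 at -0.19 passed, but lost their call in 17 and 7 of the other settings. Summed over the members, knockout was 62.6% of wild type under CC-885 and 92.5% under DMSO.

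**Figure D4:**
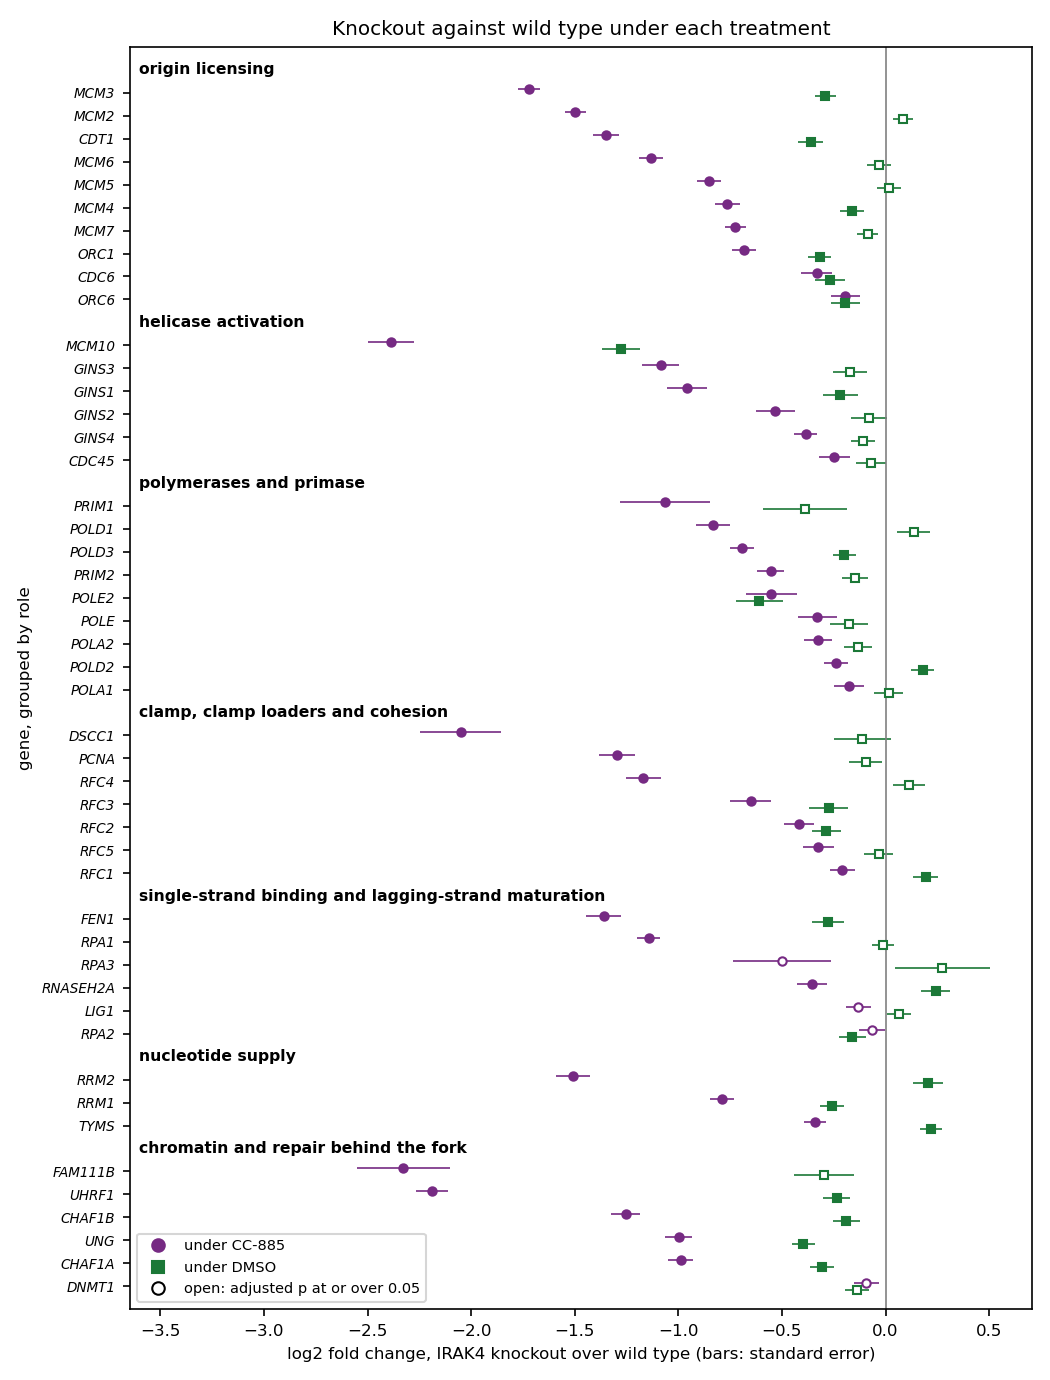
Log2 fold change of IRAK4 knockout over wild type (x axis, bars are standard errors) for each of the 47 genes under CC-885 (purple circles) and under DMSO (green squares), filled where the adjusted p was under 0.05. The purple circles lie left of 0, while the green squares scatter around a slightly negative value, with MCM10 far to the left.

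Without CC-885 the genotype differences of most members were small. Under DMSO 19 of 47 members were lower in knockout, where 28.4% of all genes tested were lower, and 5 were higher, where 21.3% were higher. The median was -0.15, beside -0.06 over all genes, and 23 members without a call ranged from -0.39 to 0.27. The split depended on the scaling. With upper-quartile factors, which raised the median of all genes by 0.12 in this comparison, 8 members were lower and 9 higher, where 19% of all genes were lower and 29.3% higher, and the members' median was -0.02. Within the libraries that carry 51, where replicate 1 is the only DMSO-treated wild-type library, the members' median was -0.12.

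The members lowest in knockout under DMSO were MCM10, POLE2 and UNG. MCM10 had 26.5, 29.8 and 30.9 CPM in knockout libraries, against 64.3, 71.3 and 75.8 CPM in wild-type libraries, a difference of -1.28 ± 0.09 (adjusted p = 1.52e-08) and the only called fall of at least 2-fold, where 6.68% of all genes had one. POLE2 had 14.2, 14.0 and 14.8 CPM in knockout libraries, against 19.0, 22.0 and 24.6 CPM in wild-type libraries, a difference of -0.61 ± 0.11 (adjusted p = 0.000356). UNG had 66.8, 69.9 and 70.4 CPM in knockout libraries, against 87.6, 94.2 and 90.8 CPM in wild-type libraries, a difference of -0.40 ± 0.06 (adjusted p = 3.2e-05). The genotypes did not overlap for any of these. The members called higher were TYMS at 0.22 ± 0.05 (adjusted p = 0.00276), RNASEH2A at 0.24 ± 0.07 (adjusted p = 0.00805), RRM2 at 0.20 ± 0.07 (adjusted p = 0.0279), RFC1 at 0.19 ± 0.06 (adjusted p = 0.0133) and POLD2 at 0.18 ± 0.06 (adjusted p = 0.0161). RPA3 had a larger value, 0.27 ± 0.23, but did not pass (adjusted p = 0.354), although it did without the wild-type library that stands apart (0.273, adjusted p = 0.0234). RRM2 lost its call without wild-type DMSO replicate 1 or 3 or knockout DMSO replicate 1 or 2 (0.186 to 0.21, adjusted p between 0.0517 and 0.086), POLD2 without replicate 1 of the knockout or wild-type DMSO group (0.141 and 0.161, adjusted p = 0.0618 and 0.0556), and RFC1 without knockout DMSO replicate 2 (0.15, adjusted p = 0.0679). With the number that ends the library name as a replicate block, none of the 5 kept its call. TYMS then had 0.177 (adjusted p = 0.057) and RNASEH2A 0.235 (adjusted p = 0.0608). Each of the 5 called higher was below wild type under CC-885, with log2 fold changes of -1.51 for RRM2, -0.36 for RNASEH2A, -0.34 for TYMS, -0.24 for POLD2 and -0.21 for RFC1.

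Genes around MCM10 on chromosome 10 were also lower in knockout. MCM10 lies at chr10:13161558-13211110 in the RefSeq gene table, and the median difference of its 20 nearest tested genes, 10 on each side over 3.49 Mb, was -1.06, with 18 of 20 below 0. For UNG on chromosome 12 the neighbours' median was -0.39, with 18 of 20 below 0, beside -0.40 for the gene. For POLE2 on chromosome 14 it was -0.23, beside -0.61 for the gene. Over all 47 members, gene and neighbour values under DMSO had a Pearson r of 0.63, which was 0.26 over the other 46 without MCM10 and 0.48 with 5 neighbours on each side. This r is a description, since gene and neighbours come from the same libraries, and the part of the neighbourhood in the difference of MCM10 was not tested. The response of MCM10 to CC-885 is a difference within a genotype and does not use that contrast. Its difference between genotypes under CC-885, -2.39, includes what was already present under DMSO, where it was -1.28.

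**Figure D5:**
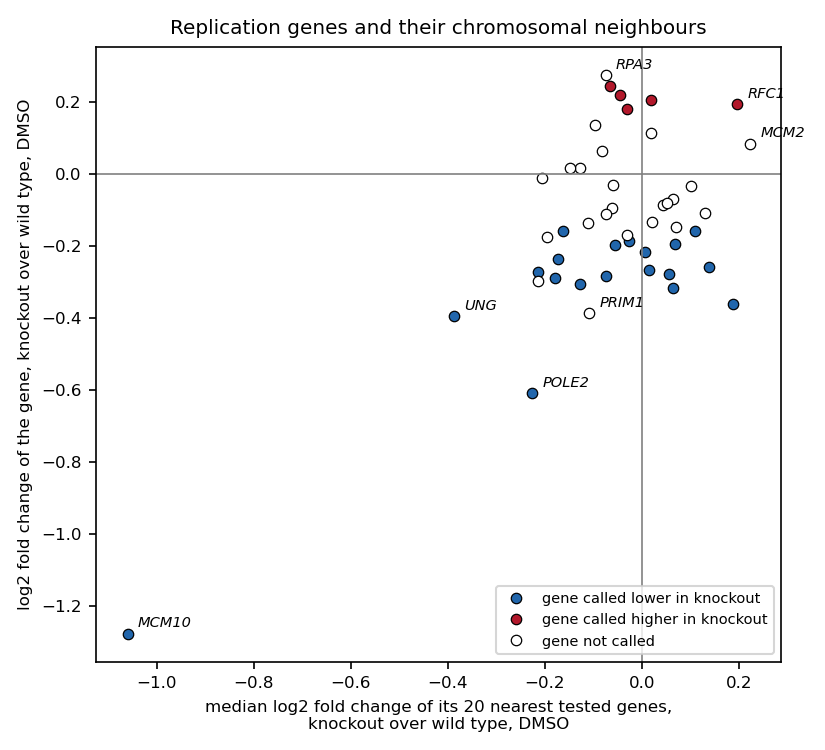
Log2 fold change of each of the 47 genes in IRAK4 knockout over wild type under DMSO (y axis) against the median of its 20 nearest tested genes (x axis). MCM10 stands alone at the lower left, at -1.28 with neighbours at -1.06.

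Other genes of the pathway were read from 3 lists for comparison. Of all genes tested, 40% fell and 38.9% rose in knockout, and 36.6% fell and 35.7% rose in wild type. The interaction was called negative for 16.8% of all genes and positive for 17.9%. Among 48 further replication genes, 38 fell and 7 rose in knockout (median -1.09) and 38 fell and 6 rose in wild type (median -0.85), and the interaction was called negative for 24 and positive for 4. TK1 (-3.13), thymidine kinase, was among their deepest falls in knockout, while RRM2B (2.07), the ribonucleotide reductase subunit used outside S phase, and TOP1 (1.603), a topoisomerase, rose most. In wild type the checkpoint mediator CLSPN (-2.29) was among the deepest falls, and RRM2B (1.44) and the histone chaperone ASF1A (1.30) rose most. Among 30 regulators of the G1 to S step, 21 fell and 8 rose in knockout (median -0.89) and 20 fell and 7 rose in wild type (median -0.91). The interaction was called negative for 16 of these and positive for 3, where 16.8% and 17.9% of all genes were. SKP2, which targets the inhibitor p27 for degradation, had log2 fold changes of -4.06 in knockout and -2.67 in wild type, and the repressor gene E2F8 of -3.83 in knockout and -2.52 in wild type, while those of the inhibitor gene CDKN1A were 3.42 in knockout and 3.87 in wild type. Among 32 mitosis genes, 25 fell and 2 rose in knockout (median -0.69) and 30 fell and 0 rose in wild type (median -0.65). Their interaction was called negative for 4 (12.5%) and positive for 7 (21.9%), near the shares over all genes. SPC25, a kinetochore protein, had -3.27 in knockout and -2.17 in wild type, while CDC20 (0.41) and AURKA (0.20) rose in knockout. These counts describe the lists and test nothing about the 47 members.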

How the data were processed

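Bulk polyA RNA of THP-1 cells was sequenced in 12 libraries, and the authors deposited raw counts per gene symbol in 1 table. Per the submitters' processing notes, the tools were FastQC 0.11.2, HISAT2 2.0.5 and featureCounts 1.5.2 with the build GRCh38, while the labels' extract protocol names the mouse build mm10. The symbols are human. Strand setting and handling of reads with several matches: not given in the sources used here. Counts of overlapping genes are therefore uncertain. The cell line tag counts upward from sample to sample, and the titles give THP1 throughout.

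Groups were taken from the titles. Genes were kept by edgeR's filterByExpr (16010 of 30017 symbols, 99.98% of counts, 7380 symbols without a count), scaled by TMM and fitted with edgeR's robust quasi-likelihood model (edgeR 4.0.16, R 4.3.3) over all 12 libraries, 1 coefficient a group, no covariate. The biological coefficient of variation was 0.0899. For each of 5 contrasts, p-values were adjusted over the 16010 genes by Benjamini-Hochberg with a threshold of 0.05. Standard errors come from the F statistic. TMM makes changes relative to most other genes, not per cell.

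Per-library values were given, by rule, for the largest responder and the highest level in each role, for members not called lower in both genotypes, and for the 3 most positive and 3 most negative values of each genotype contrast and of the interaction. For other genes the rule took IRAK4, GSPT1, CRBN and MYC and the 2 largest rises and falls a list, of which 1 gene is not reported here. GSPT1 averaged 298 ± 2.29 CPM in CC-885-treated and 180.3 ± 9.65 CPM in DMSO-treated knockout libraries, against 253 ± 6.02 CPM in CC-885-treated and 223 ± 8.58 CPM in DMSO-treated wild-type libraries, and CRBN averaged 36.9 ± 1.07 CPM in CC-885-treated and 17.7 ± 1.51 CPM in DMSO-treated knockout libraries, against 38.1 ± 15.7 CPM in CC-885-treated and 15.9 ± 0.475 CPM in DMSO-treated wild-type libraries (SD, n = 3 each). In wild type CDK6 rose by 1.03 and INCENP fell by 1.64, and in knockout CDKN1C rose by 1.56 and ESPL1 fell by 2.20 on the log2 scale. The members and lists were chosen with earlier results of these data known.

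Alternatives were RLE, upper-quartile and library-size scaling, no filter, DESeq2 1.42.0, the groups compared alone, 2 replicate blocks, the library-name prefix, and each library left out in turn. The pipeline was run on simulated data in which far fewer genes changed than were called here under CC-885, so that run does not test the scaling. Gene positions and exon lengths came from RefSeq and GENCODE annotations of GRCh38.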

Additional observations from a re-analysis of the deposited data

Results flagged for a closer look

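For 34 of the 47 members the test of the genotype by CC-885 interaction passed (edgeR's quasi-likelihood test, adjusted p under 0.05 over all genes tested). Of all genes tested, 16.8% had a negative interaction that passed and 17.9% a positive one. Each value is the log2 fold change in knockout minus that in wild type, and all 34 are negative. In origin licensing the values were -1.58 for MCM2, -1.43 for MCM3, -0.60 for MCM4, -0.87 for MCM5, -1.10 for MCM6, -0.64 for MCM7, -0.37 for ORC1 and -0.99 for CDT1. In helicase activation they were -1.11 for MCM10, -0.74 for GINS1, -0.45 for GINS2, -0.91 for GINS3 and -0.28 for GINS4. Among polymerase and primase subunits they were -0.41 for PRIM2, -0.97 for POLD1, -0.42 for POLD2 and -0.49 for POLD3. Among the clamp and its loaders they were -1.20 for PCNA, -0.40 for RFC1, -0.38 for RFC3, -1.28 for RFC4, -0.29 for RFC5 and -1.94 for DSCC1. RFC3 and RFC5 lost this call in 8 and 9 of the fits with 1 library left out. In single-strand binding and lagging-strand maturation they were -1.13 for RPA1, -1.08 for FEN1 and -0.60 for RNASEH2A. In nucleotide supply they were -0.53 for RRM1, -1.71 for RRM2 and -0.56 for TYMS. In chromatin and repair they were -1.96 for UHRF1, -0.68 for CHAF1A, -1.07 for CHAF1B, -0.60 for UNG and -2.03 for FAM111B.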

How the results depend on the processing

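The falls under CC-885 depended little on the settings tried. Leaving out each library in turn gave 46 members lower in knockout (median -2.10 to -2.01) and 45 to 46 in wild type, 41 to 43 lower in knockout than wild type under CC-885, and 32 to 36 negative interactions. In the main fit, over all 12 libraries, 40% of all genes tested were lower in knockout and 36.6% in wild type. Between genotypes under CC-885 30.8% were lower, and 16.8% had a negative interaction. The shares of all genes in the fits with 1 library left out are not reported here for these comparisons. The knockout median of -2.10 was -2.24 with upper-quartile factors, -2.19 with library size alone, and -2.01 with the library-name number as a replicate block, with the library-name prefix as a covariate and in libraries of prefix 51 alone. Under DMSO the genotype calls were the least stable. There 19 lower members (28.4% of all genes tested) became 8 with upper-quartile factors (19% of all genes) and 12 without a filter (16.3%). With 1 library left out they were 13 to 25, where 23.7% to 33% of all genes were lower. The 5 higher members (21.3% of all genes) became 9 with upper-quartile factors (29.3%). With 1 library left out these were 3 to 6, where 18% to 24% of all genes were higher. The median of -0.15 was -0.0245 with upper-quartile factors, -0.0943 with library size alone, -0.0915 with no filter and -0.0875 in the groups compared alone. In this comparison 103 single-member values under alternative settings lost a call, over 16 members. The interactions of DNMT1 and POLE2, not called in any setting, changed sign, DNMT1 to -0.0341 (upper quartile), -0.0379 (no filter), -0.0134 (library-name block), -0.0382 (prefix 51), and -0.00374 and -0.00173 without wild-type DMSO replicate 3 or CC-885 replicate 3 (range with 1 library left out -0.00374 to 0.0946), and POLE2 to -0.0167 (upper quartile), -0.0246 (no filter), and -0.0352, -0.0141 and -0.00725 without wild-type DMSO replicate 3, CC-885 replicate 1 or CC-885 replicate 2 (range -0.0352 to 0.213). RFC3 and RFC5 lost their interaction calls in 8 and 11 settings. The cause was not tested in any of these.

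The replicate numbers of the titles gave no clear pairing of the samples, and these correlations do not settle whether there was one. Deviations of same-numbered libraries correlated at -0.0338 to 0.232 in 18 pairs, of which 2 were over 0.1. Those of differently numbered libraries correlated at -0.267 to 0.154 in 36 pairs, of which 1 was over 0.1. Of 12 libraries, 6 correlated best with their own number. With the title number as a replicate block, 46 members were lower in each genotype. The main fit, which had no block, called 40% of all genes lower in knockout and 36.6% in wild type. Under DMSO, 19 members were lower and 5 higher in knockout with that block, where 28.5% and 21.4% of all genes were. With that block the interactions of RPA3 (-0.708, adjusted p = 0.0379) and PRIM1 (-0.62, adjusted p = 0.0287) passed, as did the difference of RPA3 between genotypes under CC-885 (-0.456, adjusted p = 0.038). The interaction of PRIM1 also passed with the library-name prefix as a covariate (-0.619, adjusted p = 0.01) and with DESeq2 (-0.687, adjusted p = 0.0293). With the library-name number as a block the DMSO counts were 13 lower and 0 higher, where 23.2% and 17.2% of all genes were. The 11 pairs that share this number correlated at -0.0502 to 0.232. DESeq2 gave 46 members lower in knockout and 45 in wild type, and its shares over all genes are not reported here for these 2 comparisons. Between genotypes under DMSO it gave 16 lower and 6 higher, where 22.5% and 19.3% of all genes were.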
